A study of Homo sapiens with 18 samples.

Results

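The transcription factor HIF (hypoxia-inducible factor) is assembled from an alpha and a beta subunit, and 5 genes encoding such subunits were followed here: HIF1A, EPAS1 and HIF3A for the alpha side, and ARNT and ARNT2 for the beta side. The 5 genes were taken by name, and all 5 were among the 23106 genes counted in each sample. PolyA+ RNA had been sequenced from 3 established human cell lines, each in normoxia and in hypoxia. Each of these 6 groups held 3 replicates, which makes 18 samples. HKC-8 is a line of kidney proximal tubule cells. RCC4 is a kidney cancer line, used here as cells stably transfected with wild-type VHL, the gene these cancer cells lack in working form, so that both the normoxic and the hypoxic RCC4 cells carried the added gene. HepG2 is a hepatocellular cancer line. Hypoxia was 0.5% oxygen for 16 h for HKC-8 and HepG2 cells by their labels, although the HKC-8 titles name 0.1% for hypoxia. For RCC4 cells the labels give 1% for 24 h, whereas the study elsewhere describes 1 exposure of all lines, the one labelled for HKC-8 and HepG2. Cell line and exposure therefore cannot be told apart in any comparison of hypoxic RCC4 cells with another line. The labels do not say whether replicates were separate cultures, so the p-values measure the spread between these samples, which may be technical.

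HIF-alpha subunits are made continuously. When oxygen is present they are hydroxylated by the EGLN prolyl hydroxylases, bound by the VHL ubiquitin ligase and destroyed, and when oxygen is scarce they persist, pair with a beta subunit and bind DNA at a short core motif. HIF-1α and HIF-2α, the products of HIF1A and EPAS1, are the main alpha subunits and bind overlapping but different sets of genes, while HIF-3α, from HIF3A, is less studied and exists in forms that oppose the others. ARNT encodes HIF-1β, which is also the partner of the aryl hydrocarbon receptor, and ARNT2 encodes a close relative best known from nerve cells. Because the main oxygen switch acts on protein, mRNA levels do not report HIF activity, and the values below are of mRNA only.

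In GRCh37, HIF1A lies on chromosome 14 (62162231 to 62214977, forward strand, 15 exons in its main transcript) and EPAS1 on chromosome 2 (46520806 to 46613836, forward strand, 16 exons). HIF3A is on chromosome 19 (46800299 to 46846690, forward strand, 15 exons), ARNT on chromosome 1 (150782189 to 150849184, reverse strand, 22 exons) and ARNT2 on chromosome 15 (80696692 to 80890274, forward strand, 19 exons). Other annotated genes, among them the antisense genes HIF1A-AS1 and HIF1A-AS3, overlap 11.3% of the exon bases of HIF1A, 4.69% of those of ARNT2 and 3.31% of those of HIF3A, and no gene overlaps an exon of EPAS1 or ARNT. The counting's strand setting is not given in the sources used here, so reads of the overlapped parts cannot be assigned to one strand with certainty. The 2 alpha genes that changed with oxygen are shown by the 250 bases before their main start site, because their mRNAs responded to hypoxia and HIF itself binds the core ACGTG or GCGTG. Capitals mark every match to either core on either strand. The sequences are from RefSeq on build GRCh38.p14, another build than that of the gene positions above, and both are on the forward strand, at chr14:61695263-61695512 for HIF1A and chr2:46297157-46297406 for EPAS1.
HIF1A: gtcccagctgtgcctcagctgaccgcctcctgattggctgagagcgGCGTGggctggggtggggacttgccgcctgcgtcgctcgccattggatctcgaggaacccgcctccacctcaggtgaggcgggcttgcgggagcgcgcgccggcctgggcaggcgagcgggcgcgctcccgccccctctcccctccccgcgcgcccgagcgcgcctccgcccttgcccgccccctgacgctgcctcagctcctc
EPAS1: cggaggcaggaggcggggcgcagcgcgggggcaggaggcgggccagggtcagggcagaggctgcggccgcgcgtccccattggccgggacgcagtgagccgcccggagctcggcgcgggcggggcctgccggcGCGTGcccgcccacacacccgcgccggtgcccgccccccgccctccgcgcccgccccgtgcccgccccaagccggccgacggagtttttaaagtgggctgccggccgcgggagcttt
Each promoter held 1 GCGTG and no ACGTG. RefSeq entries of 300 bases, the last 50 of them after the start, were found for 4 of the 5 genes. In these longer windows the first HIF3A start had 3 GCGTG, and the ARNT start, a second HIF1A start and the other 2 HIF3A starts had neither core. Of all 35116 such promoters 48.4% held at least 1 of the cores and 10.1% held 3 or more, so a match is common and is a description of letters, not a binding site. The HIF1A and EPAS1 windows were rich in G and C (73% and 80%, against a median of 58.7% over all promoters).

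Depth differed with cell line: the total count per library ran from 75441764 to 97984260 for HKC-8, from 42045335 to 51794355 for RCC4 and from 40915980 to 48355303 for HepG2. A list of 12 genes known to be induced by hypoxia, such as VEGFA, was checked, and every gene that could be tested rose. That was 12 for HKC-8, 10 for RCC4 and 12 for HepG2, where 11.2%, 25.9% and 19.9% of all genes tested rose. CA9 and EGLN3 had too few counts to be tested in RCC4 cells. Levels are given as CPM, which are counts scaled to a common library size with edgeR's TMM factors over all 18 samples, while fold changes come from fits within each line. Hepatocyte markers were abundant in HepG2 cells (9 of 9 tested, ALB at 10720.5 CPM in normoxia), and in HKC-8 and RCC4 cells their summed level was at most 10.5 CPM. Kidney epithelial markers were found in both kidney lines, with PAX8 at 165 CPM in HKC-8 and 132 CPM in RCC4 cells in normoxia. Of the defining proximal tubule genes, LRP2, AQP1, SLC34A1 and CUBN were each at or near 0 in normoxic HKC-8 cells (0 to 0.0495 CPM), and LRP2 (0.667 CPM), SLC34A1 (0.987 CPM) and CUBN (0.0198 CPM) were low in normoxic RCC4 cells too. Leukocyte markers (PTPRC, CD3E) were at or near 0 in all lines, and of the endothelial markers CDH5 stood at 1.84 CPM in normoxic HKC-8 and PECAM1 at 1.37 CPM in normoxic HepG2 cells.

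HIF1A mRNA fell in hypoxic HKC-8 cells to less than 50% of its normoxic level, fell slightly in RCC4 cells and showed no detectable change in HepG2 cells. These are bulk samples, in which fewer cells of a kind and less RNA per cell cannot be told apart. In HKC-8 cells the 3 normoxic samples had 385, 367 and 340 CPM and the 3 hypoxic samples 164, 155 and 167 CPM. The groups lay far apart, at 364 ± 22.2 against 162 ± 6.21 CPM (SD, n = 3). The log2 fold change, -1.16 ± 0.08 (SE), passed edgeR's quasi-likelihood test (adjusted p = 3.60e-05), and the level was 0.447 times that in normoxia. HIF1A ranked 34 from the bottom among the fold changes of the 13536 genes tested in these cells, and 0.229% of the genes passed the test with a fall of at least 2-fold. RCC4 cells had 370, 369 and 359 CPM in normoxia and 314, 314 and 318 CPM in hypoxia. Here too the groups did not overlap, but the fall was small, with a log2 change of -0.21 ± 0.03 (SE, adjusted p = 7.08e-06). HepG2 cells had 299, 291 and 372 CPM in normoxia against 309, 311 and 321 CPM in hypoxia. These groups overlapped, normoxia replicate 3 being the highest of all 6, and the log2 fold change was -0.03 (95% interval -0.20 to 0.15, adjusted p = 0.806). Without that sample it was 0.08 (adjusted p = 0.248).

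EPAS1 mRNA rose in hypoxia in each line, most in HKC-8 cells. There it went from 71.1, 67.4 and 79.8 CPM to 204, 148 and 160 CPM, so that the lowest hypoxic sample was well above the highest normoxic one. The log2 change of 1.23 ± 0.12 (SE, adjusted p = 0.000366), or 2.35-fold, placed EPAS1 at rank 477 from the top of the 13536 genes, of which 3.96% passed with a rise of at least 2-fold. RCC4 cells had 251, 255 and 242 CPM in normoxia and 313, 289 and 293 CPM in hypoxia. In HepG2 cells the normoxic samples had 225, 225 and 263 CPM and the hypoxic ones 303, 294 and 335 CPM. The groups did not overlap in either line, and the rises were modest, at 0.26 ± 0.04 (SE, adjusted p = 2.01e-06) and 0.39 ± 0.07 (SE, adjusted p = 0.00108) on the log2 scale. The call in RCC4 cells was lost when all 18 samples were fitted together (adjusted p = 0.0625).

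**Figure D1:**
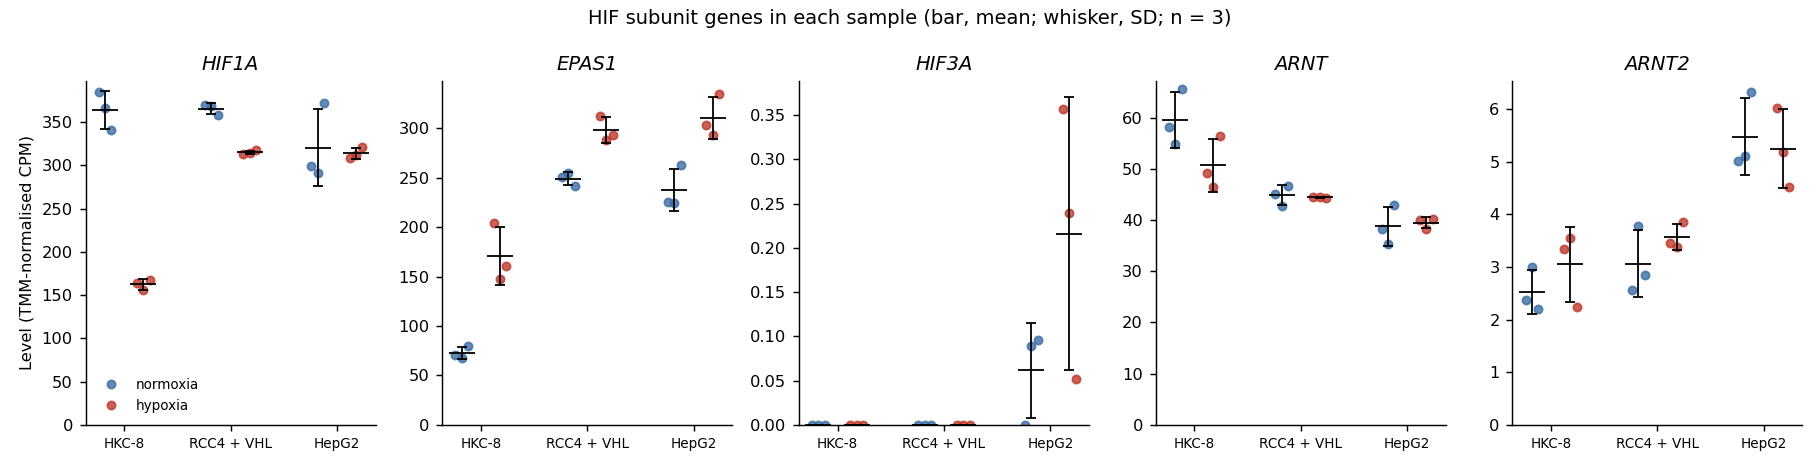
Level of each subunit gene in every sample, in TMM-normalised CPM on linear axes that start at 0, for normoxia (blue) and hypoxia (red) in 3 cell lines. The horizontal bars are means of 3 replicates and the whiskers are SDs. In HKC-8 cells HIF1A fell from 364 to 162 CPM while EPAS1 rose from 72.8 to 171 CPM, and HIF3A was at 0 in every HKC-8 and RCC4 sample.

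HIF3A was at or near 0 in all samples. No read was counted on it in any of the 6 HKC-8 or 6 RCC4 samples, although the shallowest of them had a total count of 42045335. A count of 0 allows a level of up to 0.0307 to 0.0376 CPM in a single HKC-8 library and 0.0593 to 0.0702 CPM in a single RCC4 library, limits that stand for 3 counts and cover counting error only. HepG2 cells had 0, 4 and 4 counts in normoxia and 15, 11 and 2 in hypoxia, or at most 0.357 CPM. The groups overlapped, since hypoxia replicate 3 had fewer counts than 2 of the normoxic samples. HIF3A did not pass the filter on low counts in the main fits. Fitted without the filter in HepG2 cells, its log2 fold change was 1.78 with a standard error of 0.85 (adjusted p = 0.128), so that a hypoxic change of HIF3A was not detectable at this depth. Between lines HIF3A was higher in HepG2 than in HKC-8 cells without the filter (adjusted p = 0.0193 in normoxia and 0.000563 in hypoxia) and than in RCC4 cells (adjusted p = 0.0455 and 0.00195). In hypoxia it passed the filter, only through its HepG2 counts, in 7 of the 9 fits that left out 1 sample. It was called above HKC-8 and RCC4 in each of those 7, but the HepG2 counts that passed the filter also made the call. Their p-values therefore carry no weight and are not given. Those fits share the same few HepG2 counts and add no separate support. These calls set a few counts in HepG2 cells against groups at 0, so no fold is given.

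The beta subunits did not pass the test for a change with oxygen in any line, with 0 of 6 comparisons called by edgeR or by DESeq2 and none at an unadjusted p under 0.05. ARNT had 58.1, 54.8 and 65.6 CPM in normoxic HKC-8 cells and 49.1, 46.5 and 56.4 CPM in hypoxic ones. The groups overlapped and the log2 fold change was -0.23 (95% interval -0.46 to 0.00, adjusted p = 0.142). With the replicate number as a block the same change passed the test (adjusted p = 0.00817), as it did in 1 fit of all 18 samples (adjusted p = 0.0349). Each hypoxic sample of ARNT lay below the normoxic sample of the same number. RCC4 cells had 45.1, 42.8 and 46.7 CPM of ARNT in normoxia and 44.4 CPM in each hypoxic sample. HepG2 cells had 38.2, 35.4 and 42.9 CPM in normoxia and 40.0, 38.2 and 40.2 CPM in hypoxia. In neither line did ARNT move beyond its spread, with log2 fold changes of -0.01 (95% interval -0.11 to 0.09, adjusted p = 0.905) and 0.02 (95% interval -0.14 to 0.19, adjusted p = 0.832).

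ARNT2 was expressed at a low level everywhere, from 122 to 348 counts per sample. HKC-8 cells had 2.37, 3.01 and 2.21 CPM in normoxia and 3.35, 3.56 and 2.24 CPM in hypoxia. RCC4 cells had 2.57, 3.77 and 2.85 CPM in normoxia and 3.46, 3.38 and 3.85 CPM in hypoxia. HepG2 cells had 5.01, 5.10 and 6.33 CPM in normoxia and 6.02, 5.19 and 4.53 CPM in hypoxia. The groups overlapped in each line. The log2 fold changes were 0.27 for HKC-8 cells (95% interval -0.22 to 0.77, adjusted p = 0.411), 0.22 for RCC4 cells (95% interval -0.11 to 0.55, adjusted p = 0.262) and -0.06 for HepG2 cells (95% interval -0.37 to 0.25, adjusted p = 0.776). The upper bounds leave room for a sizeable rise in the kidney lines. ARNT2 varied more between replicates than its counts alone would give in all groups but hypoxic RCC4 cells, where the coefficient of variation was 6.996% against 7.57% from counting.

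Counted over the 4 genes that were tested, 2 changed in HKC-8 cells, 2 in RCC4 cells and 1 in HepG2 cells, where 20.4%, 50.1% and 39.1% of all genes tested passed. Rises made up 11.2%, 25.9% and 19.9% of all genes tested, and EPAS1 was the 1 subunit gene that rose in each line. Falls made up 9.12% and 24.2% in HKC-8 and RCC4 cells, and HIF1A was the 1 subunit gene that fell in each. With so many genes called in RCC4 and HepG2 cells, the counts of subunit genes called there were near the background. The median log2 fold change of all genes lay within 0.01 of 0 in each line.

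**Figure D2:**
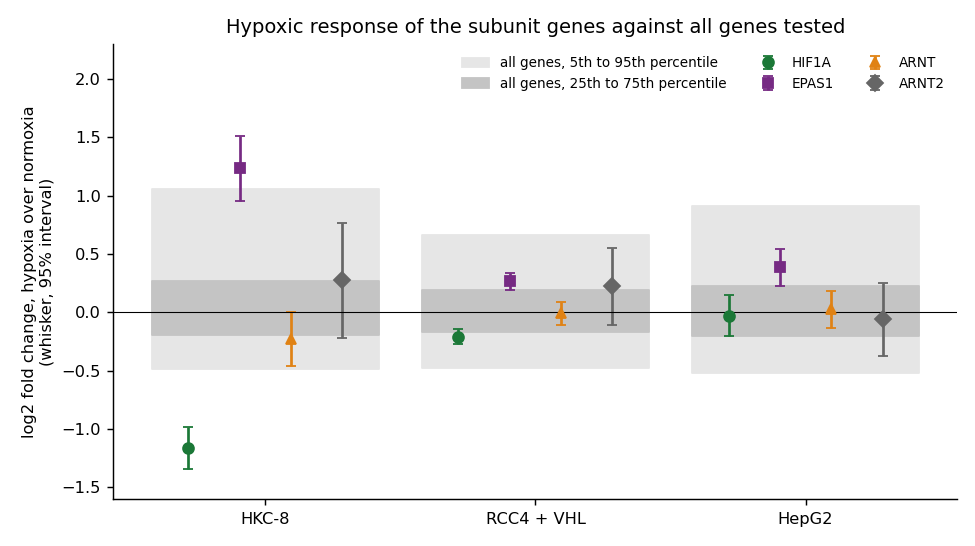
Log2 fold change of each subunit gene in hypoxia over normoxia, with 95% intervals, drawn over the range of all genes tested in that line (light grey, 5th to 95th percentile; dark grey, 25th to 75th percentile). HIF1A (-1.16) and EPAS1 (1.23) lie outside the light band in HKC-8 cells, and no subunit gene lies outside it in RCC4 or HepG2 cells.

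Whether the lines differed in their response was tested directly. Between HKC-8 and HepG2 cells, whose labelled exposure is the same but whose titles name 0.1% and 0.5% oxygen, the log2 change of HIF1A differed by -1.13 (HKC-8 minus HepG2, 95% interval -1.40 to -0.87, adjusted p = 4.41e-05), and that of EPAS1 by 0.84 (95% interval 0.51 to 1.18, adjusted p = 0.00308). HIF1A thus fell in HKC-8 cells with no detectable change in HepG2 cells, and EPAS1 rose further in HKC-8 cells. Of all genes 9.3% differed in this comparison. ARNT (-0.26, 95% interval -0.54 to 0.03) and ARNT2 (0.33, 95% interval -0.26 to 0.92) did not pass. Both genes also changed less in RCC4 than in HKC-8 cells, with differences (RCC4 minus HKC-8) of 0.93 for HIF1A (adjusted p = 6.30e-06) and -0.99 for EPAS1 (adjusted p = 0.000656), where 15.2% of genes differed and the exposure differed by the labels. ARNT missed the threshold in that comparison (0.20, adjusted p = 0.306) and passed it with the replicate block (adjusted p = 0.0472). Between RCC4 and HepG2 cells 22.6% of all genes differed, and 0 of the 4 subunit genes passed by edgeR or DESeq2 (0 and 1 at an unadjusted p under 0.05), with differences (RCC4 minus HepG2) of -0.19 for HIF1A (95% interval -0.38 to 0.00, adjusted p = 0.150) and -0.13 for EPAS1 (95% interval -0.31 to 0.05, adjusted p = 0.310). This last result rests on 1 library: without HepG2 normoxia replicate 3, the highest normoxic HepG2 sample for HIF1A, EPAS1, ARNT and ARNT2 alike, HIF1A differed by -0.30 (adjusted p = 0.000461) and EPAS1 by -0.20 (adjusted p = 0.0445).

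**Figure D3:**
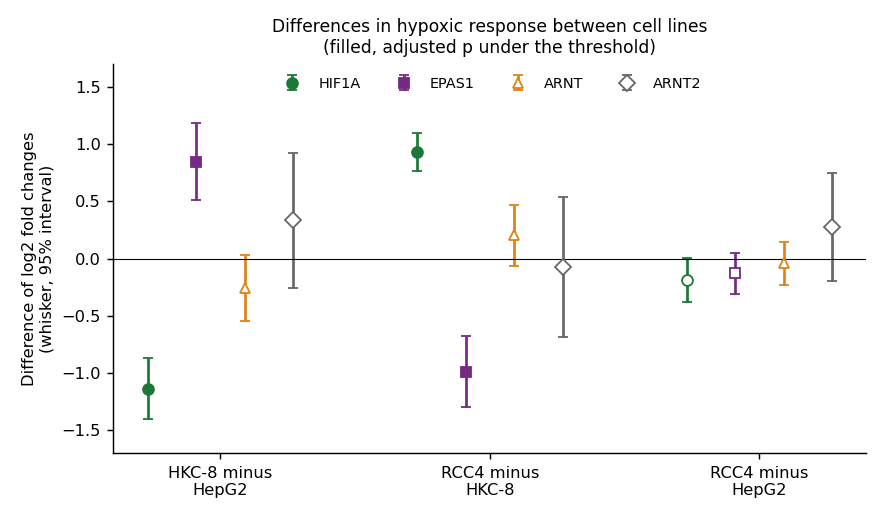
Difference between cell lines in the log2 fold change of each subunit gene, with 95% intervals. Filled symbols passed the test and open symbols did not. HIF1A and EPAS1 differed in both comparisons that involve HKC-8 cells, in opposite directions, and not between RCC4 and HepG2 cells.

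The lines also differed in the level of the subunits. In normoxia HIF1A stood at 364 ± 22.2 CPM in HKC-8 cells, at 366 ± 6.10 CPM in RCC4 cells and at 321 ± 44.5 CPM in HepG2 cells (SD, n = 3), and no pair of lines differed by the main test (adjusted p = 0.0695 to 0.859). EPAS1 was lowest in HKC-8 cells, at 72.8 ± 6.34 CPM against 249 ± 6.53 in RCC4 and 238 ± 21.7 in HepG2, and each of these was above HKC-8 (log2 difference 1.79, adjusted p = 1.34e-10, and 1.73, adjusted p = 1.57e-10). RCC4 and HepG2 cells did not differ in EPAS1 beyond their spread (-0.06, 95% interval -0.23 to 0.11). ARNT ran the other way, highest in HKC-8 at 59.5 ± 5.53 CPM, then RCC4 at 44.9 ± 1.99 and HepG2 at 38.8 ± 3.81 CPM. Both lower lines differed from HKC-8 (-0.40, adjusted p = 0.00087, and -0.60, adjusted p = 2.39e-05), and HepG2 was not clearly below RCC4 (-0.20, adjusted p = 0.0507). ARNT2 was highest in HepG2 cells, at 5.48 ± 0.735 CPM against 2.53 ± 0.420 in HKC-8 (log2 difference 1.13, adjusted p = 7.78e-05) and 3.07 ± 0.630 in RCC4 (0.84, adjusted p = 0.00109). HKC-8 and RCC4 did not differ in ARNT2 beyond their spread (0.29, 95% interval -0.13 to 0.71). These are 2, 3 and 1 of the 4 genes that passed the filter, in comparisons in which 80.8%, 83% and 83.3% of all genes differed, so a difference in level between lines is the usual case. For HepG2 minus RCC4 the median log2 difference of all genes was 0.11 by edgeR, so that the HIF1A, EPAS1 and ARNT differences lie further below that median than below 0. By DESeq2 both HIF1A (adjusted p = 0.0303) and ARNT (adjusted p = 0.0267) were lower in HepG2 than in RCC4 cells. The same calls were made by edgeR without HKC-8 normoxia replicate 2 (adjusted p = 0.0203 and 0.0136), HKC-8 normoxia replicate 3 (0.0133 and 0.00625) or HepG2 normoxia replicate 3 (0.000362 and 0.00788). Without each of those samples HIF1A was also lower in HepG2 than in HKC-8 cells (adjusted p = 0.0436, 0.0091 and 0.000485).

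In hypoxia the order of HIF1A changed. HKC-8 cells, level with RCC4 in normoxia, were lowest at 162 ± 6.21 CPM, below RCC4 at 315 ± 2.24 (log2 difference 0.95, adjusted p = 1.39e-09) and HepG2 at 314 ± 6.50 CPM (0.91, adjusted p = 1.66e-09). The latter pair did not differ beyond their spread (-0.03, 95% interval -0.14 to 0.08). EPAS1 stayed lowest in HKC-8 cells, at 171 ± 29.5 CPM against 298 ± 13.1 in RCC4 and 311 ± 21.3 in HepG2, but by less than in normoxia (log2 differences of 0.79 and 0.83, adjusted p = 6.73e-06 and 4.35e-06). RCC4 and HepG2 did not differ in it beyond their spread (0.03, 95% interval -0.18 to 0.25). ARNT was again highest in HKC-8 cells, with log2 differences from HKC-8 of -0.20 in RCC4 (adjusted p = 0.0266) and -0.40 in HepG2 cells (adjusted p = 0.000294). The difference between RCC4 and HKC-8 was lost with DESeq2 (adjusted p = 0.088), without HKC-8 hypoxia replicate 3 (adjusted p = 0.115) and without any 1 of the hypoxic RCC4 samples (adjusted p = 0.066 to 0.0713). ARNT2 was highest in HepG2 cells at 5.25 ± 0.751 CPM, above HKC-8 (0.75, adjusted p = 0.002) and RCC4 (0.53, adjusted p = 0.0177). The last of these was lost without RCC4 hypoxia replicate 1 (adjusted p = 0.055), RCC4 hypoxia replicate 2 (adjusted p = 0.0561) or HepG2 hypoxia replicate 1 (adjusted p = 0.0838). HepG2 also had less ARNT than RCC4 (-0.20, adjusted p = 0.0299), a call that was lost without any 1 of the hypoxic HepG2 samples (adjusted p = 0.0518 to 0.0981), RCC4 hypoxia replicate 2 (0.0613) or RCC4 hypoxia replicate 3 (0.0602). These are 3, 4 and 2 of the 4 genes that passed the filter, where 80.7%, 83.5% and 84.3% of all genes differed.

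Levels of different genes were compared only per length, as RPKM (reads per kb of exon, scaled for depth as the CPM). HIF1A was the most abundant subunit mRNA in every group, at a mean of 70.6 in normoxic and 31.5 in hypoxic HKC-8 cells, 71.0 and 61.1 in RCC4, and 62.2 and 60.9 in HepG2 cells. It exceeded 91.9% to 96.8% of the genes with a count and a length. EPAS1 came next in each group and changed place most, from above 73.9% of genes in normoxic HKC-8 cells (9.98 RPKM) to above 88.9% in hypoxic ones (23.4 RPKM). ARNT stood at 6.02 to 9.23 RPKM and ARNT2 at 0.327 to 0.708 RPKM. In normoxic HKC-8 cells EPAS1 and ARNT were thus at nearly the same level per length, which was the case in no other group. The alpha subunits together outnumbered the beta subunits by 6.03 to 9.06 times in HKC-8 samples, by 13.5 to 15.0 times in RCC4 samples and by 13.5 to 15.9 times in HepG2 samples. In HKC-8 cells their summed level was 80.6 ± 3.70 RPKM in normoxia and 54.9 ± 4.74 RPKM in hypoxia (SD, n = 3), the fall of HIF1A being larger per length than the rise of EPAS1. No test was made on these sums.

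**Figure D4:**
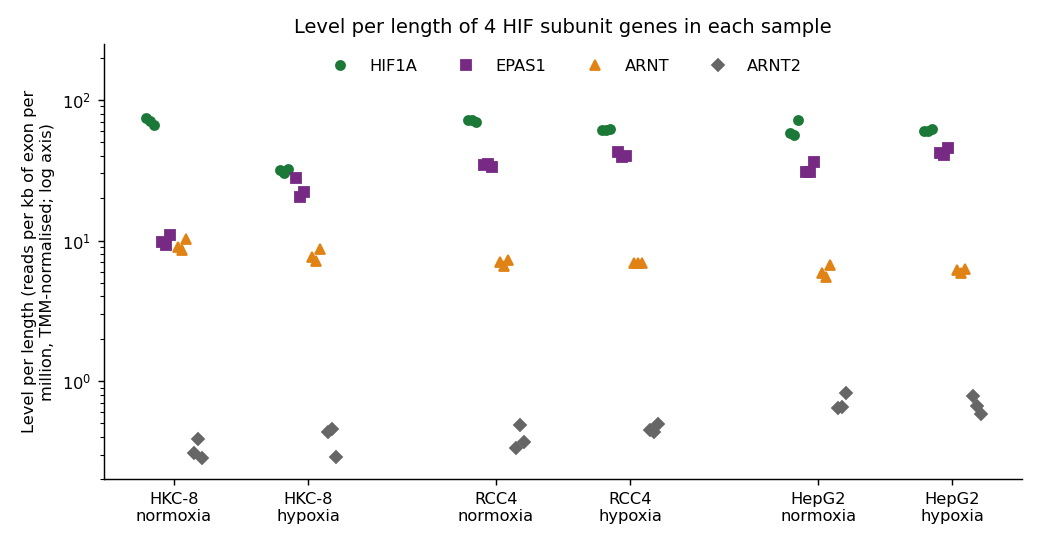
Level per length of 4 subunit genes in every sample, in RPKM on a log axis; HIF3A, at 0 in most samples, is not drawn. HIF1A lies above EPAS1 in all 18 samples, and the gap is widest in normoxic HKC-8 cells (70.6 against 9.98) and far narrower in hypoxic ones (31.5 against 23.4).

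The balance of the main alpha subunits was followed by their ratio within a sample, which does not depend on the scaling of libraries. EPAS1 over HIF1A, per length, was 0.131, 0.130 and 0.166 in normoxic HKC-8 cells and 0.876, 0.671 and 0.678 in hypoxic ones. The ratio rose 5.21-fold. In RCC4 cells it was 0.479, 0.488 and 0.476 in normoxia and 0.705, 0.650 and 0.651 in hypoxia, a 1.39-fold rise. HepG2 cells had 0.533, 0.546 and 0.499 in normoxia and 0.694, 0.666 and 0.735 in hypoxia, a 1.33-fold rise. Within each line every hypoxic sample was above every normoxic one. Over the 3 lines the mean log2 change was 1.09 (two-sided exact permutation test within lines, p = 0.00025, the smallest that 8000 arrangements can give; 0.002 after Benjamini-Hochberg adjustment over the 8 ratio tests made). In a single line 3 samples against 3 cannot give less than the exact permutation p = 0.1 found in each (adjusted p = 0.2).

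HKC-8 cells started from a far lower ratio than RCC4 and HepG2 cells, and all 3 lines ended at similar ratios. In normoxia the line means spanned 3.72-fold and the 3 lines did not overlap, whereas in hypoxia the means spanned 1.10-fold and all 3 lines overlapped, from 0.650 to 0.876 over the 9 samples. The normoxic span came from HKC-8: RCC4 and HepG2 cells lay 1.77 and 1.90 above it on the log2 scale, and HepG2 only 0.13 above RCC4. Expressed as a share of the alpha mRNA per length, HIF1A made up 85.8% to 88.5% in normoxic HKC-8 samples and 53.3% to 59.8% in hypoxic ones. In RCC4 cells its share was 67.2% to 67.7% and then 58.6% to 60.6%, and in HepG2 cells 64.7% to 66.7% and then 57.6% to 60.0%. HIF3A never exceeded 0.042%. HIF1A was above EPAS1 per length in all 18 samples, and with the length of the longest transcript in place of all exons this was unchanged. By counts alone, without length, EPAS1 was above HIF1A in 2 of the 9 hypoxic samples. Depth, cell line and, for RCC4, exposure differ together between these groups.

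ARNT2 was a minor part of the beta subunit mRNA, from 2.73% to 5.998% in the HKC-8 samples, from 4.53% to 6.85% in those of RCC4 and from 8.58% to 11.2% in those of HepG2. The ratio of ARNT2 to ARNT per length was 0.0281 to 0.0457 in normoxic and 0.0331 to 0.0638 in hypoxic HKC-8 cells. It was 0.0475 to 0.0735 and 0.0635 to 0.0723 in RCC4, and 0.109 to 0.123 and 0.0939 to 0.126 in HepG2 cells, and normoxic and hypoxic samples overlapped in each line. The mean log2 change over the lines was 0.21 (two-sided exact permutation test, p = 0.168, adjusted p = 0.269). Between lines the normoxic ratios did not overlap, with HKC-8 lowest and HepG2 highest, and in hypoxia HepG2 remained above both other lines, which overlapped with each other.

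**Figure D5:**
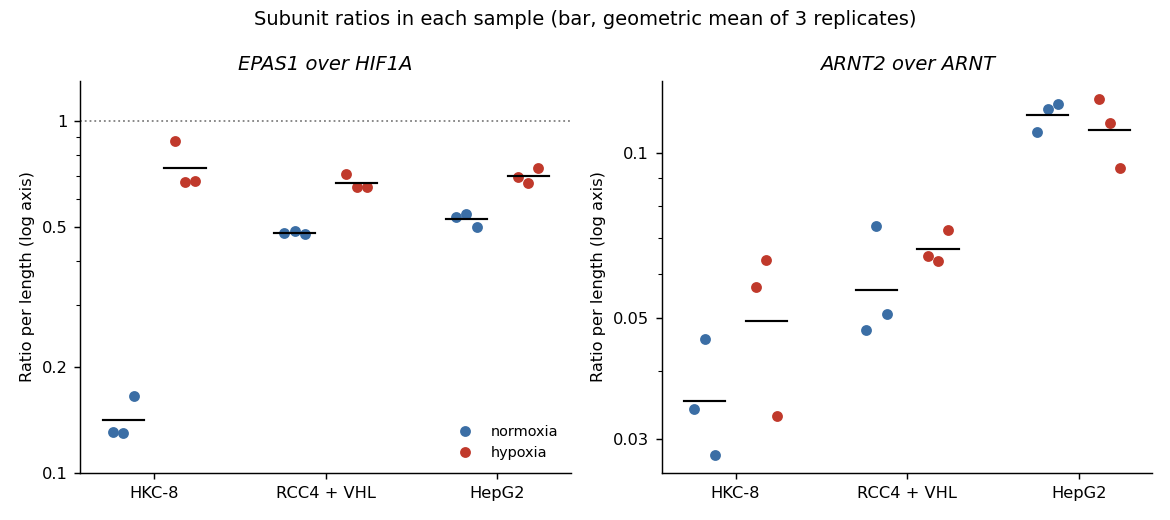
Ratio of EPAS1 to HIF1A (left) and of ARNT2 to ARNT (right) per length in every sample, on log axes, with bars at the geometric mean of 3 replicates; the dotted line marks equal levels. The EPAS1 to HIF1A ratio rises with hypoxia in each line and lies between 0.650 and 0.876 in all hypoxic samples. The ARNT2 to ARNT ratio is ordered by cell line in normoxia, and in hypoxia HepG2 lies above HKC-8 and RCC4, which overlap.

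Genes that sense oxygen or control the stability of HIF-alpha were taken as a list of 19. In HKC-8 cells 4 rose and 3 fell of 19 tested, where 11.2% and 9.12% of all genes did. Those that rose were EGLN1, the main prolyl hydroxylase (112 to 243 CPM, log2 fold change 1.12, adjusted p = 5.33e-05), EGLN3, a hydroxylase that HIF induces (1.75 to 9.08 CPM, 2.38, adjusted p = 5.73e-05), the ubiquitin ligase SIAH2 (0.62) and VHL (0.28, adjusted p = 0.0499). CUL2 (-0.37), the scaffold of the VHL ligase, and the chaperones HSP90AA1 (-0.47) and HSP90AB1 (-0.52) fell. With the replicate block 6 rose and 6 fell, where 21% and 21.6% of all genes did. In RCC4 cells 2 rose and 6 fell of 18 tested (25.9% and 24.2% of all genes). EGLN1 (0.80) and OS9 (0.33) rose, and EGLN3 was not tested, at 0.0132 CPM in normoxia and 0.102 CPM in hypoxia. Those that fell were SART1 (-0.26), EGLN2 (-0.19), HSP90AB1 (-0.17), SENP1 (-0.15), HSP90AA1 (-0.10) and TCEB2 (-0.10). HepG2 cells had 4 rises and 7 falls among 19 (19.9% and 19.2% of all genes), with EGLN3 (0.903 to 35.9 CPM, log2 fold change 5.30, adjusted p = 1.75e-09), EGLN1 (85.4 to 229 CPM, 1.42, adjusted p = 7.71e-08), SART1 (0.20) and OS9 (0.15) rising. TCEB1 (-0.41), HSP90AA1 (-0.39), TCEB2 (-0.29), CUL2 (-0.24), EGLN2 (-0.21), SIAH2 (-0.21) and MCM7 (-0.17) fell in HepG2 cells. SART1 and SIAH2 thus went opposite ways in different lines. The list medians were -0.01, -0.07 and -0.01, against 0.00 for all genes in each line. EGLN1 was the 1 gene of the list that rose in each line. All genes named here other than EGLN1 and EGLN3 were chosen for naming after their values were seen.

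HIF subunits belong to the bHLH-PAS family. Examined with them were 17 other genes, taken from that family, its coactivators and the related genes PER1, PER2 and PER3. By edgeR 0 of the 15 tested in HKC-8 cells were called, where 20.4% of all genes tested were. Of the 15, 4 had an unadjusted p under 0.05 and DESeq2 called 2. With the replicate block the clock genes ARNTL, PER1 and PER2 and the neuronal gene NPAS4 rose (21% of all genes rose with the block). The relative with the highest fold change in these cells was NPAS1, at 0.105 CPM in normoxia and 0.23 CPM in hypoxia (log2 fold change 1.12, adjusted p = 0.0835). In RCC4 cells 7 of 15 rose and 1 fell, where 25.9% and 24.2% of all genes did, and in HepG2 cells 1 of 14 rose and 4 fell, where 19.9% and 19.2% did. The rise in HepG2 was that of NPAS1, a relative known from neurons, which went from 2.03 ± 0.0663 to 7.97 ± 0.649 CPM (log2 fold change 1.97, adjusted p = 9.51e-08). The 4 that fell there were AHR, ARNTL2, PER3 and NCOA3, and the 1 that fell in RCC4 was NPAS2, a clock gene. AHR, the aryl hydrocarbon receptor and another partner of ARNT, rose in RCC4 cells (30.7 to 51.4 CPM, log2 fold change 0.75, adjusted p = 5.97e-10), fell in HepG2 cells (71.1 to 50.8 CPM, -0.48, adjusted p = 0.00256) and was at 24.2 and 27.1 CPM in HKC-8 cells (0.17, adjusted p = 0.295). The list medians were 0.12, 0.28 and -0.03. The genes named here other than NPAS1 in HepG2 cells were chosen after their values were seen.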

How the data were processed

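PolyA+ RNA-seq had been made from 3 cell lines in normoxia and hypoxia, with 3 samples in each of 6 groups, assigned by the labels. The deposited values are raw read counts per gene, 1 set for each sample. According to the study's methods, the authors trimmed reads with Trim Galore (0.3.3), aligned them to GRCh37 with TopHat (2.0.8b) and Bowtie (1.0.0), removed reads that did not map uniquely with SAMtools (0.1.19), and counted them with HTSeq (0.5.4p3) in its intersection-strict mode. Removal of such reads lowers counts of genes with close copies, and the strand setting of the counting is not given in the sources used here. Total counts ran from 40915980 to 97984260 per sample, and limits from counts cover counting error only.

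Counts were tested with edgeR (4.0.16, R 4.3.3): filterByExpr, TMM factors, and the quasi-likelihood test with Benjamini-Hochberg adjustment over all genes tested, at a threshold of 0.05. Fits were made within each line, for differences of response between pairs of lines, and for levels between lines in each condition. Ratios of genes were tested by exact permutation within lines (Python 3.11.15). Exon lengths, from an annotation on GRCh37, were found for 20098 of the 23106 genes (87.0%), and promoters were taken from RefSeq. Alternatives were leaving out each sample, a block for the replicate number, all 18 samples in 1 fit, no low-count filter, a minimum of 10 counts in each sample, DESeq2 (1.42.0), and its size factors within edgeR. The code was tested on simulated counts.

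The replicate numbers come from the labels, which do not say what they share. Deviations of same-numbered normoxic and hypoxic HKC-8 samples correlated at 0.109, 0.453 and 0.447 over the genes tested in that line, each above the 0.1 taken to mark pairs, but at 0.0747, 0.373 and 0.357 over genes filtered across all 18 samples. Normoxia replicate 1 of HKC-8 correlated better with hypoxia replicate 2 (0.116 and 0.101) than with its own number in both gene sets. Pairing in HKC-8 thus depends on the gene set and was not clear for replicate 1, and this check followed a first look at the blocked fits. Blocked values are given there beside the calls they change. In RCC4 (-0.0103, 0.0333 and 0.0147) and HepG2 (0.165, 0.0617 and 0.184) the numbers did not mark pairs by that rule. HepG2 samples nevertheless each correlated best with their own number, so pairing there is not settled.

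The subunit genes and the gene lists were chosen with earlier results of these data known. Other genes were named when called with at least a 2-fold change, or as stated in the text. Replicates of a group differed by more than sampling noise in every pair.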

Additional observations from a re-analysis of the deposited data

Results flagged for a closer look

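The response to hypoxia of 2 subunit genes differed between cell lines by a test of the difference itself. Between HKC-8 and HepG2 cells (HKC-8 minus HepG2) it differed by -1.13 on the log2 scale for HIF1A (adjusted p = 4.41e-05, edgeR) and by 0.84 for EPAS1 (adjusted p = 0.00308). Between RCC4 and HKC-8 cells (RCC4 minus HKC-8) it differed by 0.93 for HIF1A (adjusted p = 6.30e-06) and by -0.99 for EPAS1 (adjusted p = 0.000656). The RCC4 cells had another labelled exposure, so cell line and exposure cannot be told apart there. The HKC-8 and HepG2 titles also name different oxygen levels, 0.1% and 0.5%, although their other labels do not.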

How the results depend on the processing

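Of the values recomputed under the alternatives, 872 kept their direction and their side of the threshold, or stayed within 1.5 times for a count, while 27 gained a call, 18 lost one, 21 moved further and 12 turned their sign. The cause of the other changes was not tested. The number of subunit genes called in RCC4 cells fell from 2 to 1 with 1 fit of all 18 samples. The number that differed in response between RCC4 and HepG2 cells was 0, and 0 to 2 when 1 sample was left out. In normoxia the number that differed between HepG2 and HKC-8 cells was 3, and 5 without the filter. The number that differed between HepG2 and RCC4 cells was 1, and 3 with DESeq2, 3 with its size factors, 4 without the filter, 3 with at least 10 counts in every sample, 3 with 1 fit of all 18 samples, 2 with the replicate block and 1 to 3 with 1 sample left out. In hypoxia that number was 2, and 1 with at least 10 counts in every sample, 1 with 1 fit of all 18 samples and 0 to 3 with 1 sample left out, HIF3A being among those called in 7 of those 9 fits. Leaving out 1 sample turned the sign only of values that did not pass the test. Over these fits the response of ARNT ran from -0.045 to 0.019 in RCC4 cells. In HepG2 cells it ran from -0.028 to 0.095, that of ARNT2 from -0.17 to 0.048 and that of HIF1A from -0.084 to 0.083. The difference in response of ARNT2 between RCC4 and HKC-8 ran from -0.24 to 0.13 and that of ARNT between RCC4 and HepG2 from -0.11 to 0.016. The normoxic difference of HIF1A between RCC4 and HKC-8 ran from -0.042 to 0.057, and the hypoxic one of EPAS1 between HepG2 and RCC4 from -0.021 to 0.073. When Spearman's rho replaced Pearson's r, 1, 0, 1 and 0 of the 3 most similar genes were shared for HIF1A, EPAS1, ARNT and ARNT2. With the replicate block, ARNT fell in HKC-8 cells (-0.23, adjusted p = 0.00817), its response differed between RCC4 and HKC-8 (0.20, adjusted p = 0.0472), and its normoxic level differed between HepG2 and RCC4 (-0.20, adjusted p = 0.0188). In HepG2 cells every sample correlated best with its own number, although not every pair reached the 0.1 taken to mark pairs. The number of subunit genes called there was 1 with and without the replicate block. HIF3A had 36 counts in all, which limits what can be said of it.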

Other observations

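Among 12 coactivators and modulators of HIF, 11 were tested in each line. HepG2 cells had 6 rises and 0 falls, where 19.9% of all genes rose and 19.2% fell. HKC-8 cells had 2 rises and 0 falls (11.2% and 9.12% of all genes), and RCC4 cells 5 rises and 2 falls (25.9% and 24.2%). CITED2, which competes with HIF-alpha for the coactivators EP300 and CREBBP, rose from 19.1 to 120 CPM in HepG2 cells (log2 fold change 2.65), and PKM, a glycolytic enzyme that also binds HIF-1α, rose by 1.04 on the log2 scale there. In HKC-8 cells CITED2 (0.51) and PKM (0.43), named because only 2 genes passed, were those that rose. Both also rose by edgeR in RCC4 cells (CITED2 0.18, adjusted p = 0.000221, and PKM 0.52, adjusted p = 4.15e-13). With the replicate block 4 rose and 1 fell in HKC-8 cells, where 21% and 21.6% of all genes did.

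The genes whose log2 levels followed each subunit gene most closely over the 18 samples were found among 15306 genes. The 18 samples share cell lines and conditions, so these correlations are a description. For HIF1A they were KARS (Pearson's r = 0.896), MRPL19 (0.888) and MED9 (0.867). None of them fell as far as HIF1A in HKC-8 cells, KARS going from 363 to 276 CPM. For EPAS1 they were LOC100133612 (0.971), TTYH3 (0.963) and GCNT4 (0.962), and TTYH3 went from 32.3 to 84.1 CPM in HKC-8, 309 to 394 CPM in RCC4 and 265 to 483 CPM in HepG2 cells. KATNA1 (0.956), CKAP2L (0.948) and CNOT2 (0.946) followed ARNT, and ZNF775 (0.918), SPRN (0.918) and LRPAP1 (0.913) followed ARNT2.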
